A study of Mus musculus with 12 samples.

Results

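Wnt8b, Fezf2, Dmrt3, Six3, Emx1, Emx2, Lhx2, Otx2 and Hesx1 are transcription factors and a secreted signal that pattern the dorsal and rostral forebrain, and their RNA was measured in whole mouse embryos at embryonic day E10.5. They are 9 of 18193 genes with a single symbol in the platform annotation. The list was drawn up with earlier results of these arrays known, and Wnt8b, Fezf2, Dmrt3 and Six3 were picked for low values in 1 double mutant array, which is replicate 3. For these 4 genes every comparison that uses that array is a description, with no test. The 9 genes have 17 probe sets, and each gene is represented by the probe set with the highest mean. All 9 passed the filter on low values, above the 40th percentile of an array in at least 3 arrays, as did 13501 genes in all. The 9 probe sets were above that percentile in all 12 arrays, the low one included.

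The series compares 4 genotypes with 3 arrays each, and the labels call the replicates biological. Double mutants (double) were Acdacd/acd and p53-/-, acd mutants (acd) were Acdacd/acd, p53 mutants (p53) were p53-/-, and the others were wild type (wt). Acd encodes TPP1, a subunit of shelterin, the complex that caps telomeres. p53 is the transcription factor that arrests or kills cells with damaged DNA. The study's design asks which responses to homozygous acd need p53. The labels describe neither allele, and they do not say whether a sample held 1 embryo or a pool, so the p-values below measure the spread between these samples. The sources used here name no litter and no strain. Values are log2 values made with RMA, the robust multi-array average, and a difference of 1 is a doubling.

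Facts of the arrays bear on all that follows. Acd itself was lower by 0.73 in acd than in wt (limma, adjusted p = 0.0113) and by 0.63 in double than in wt (limma, adjusted p = 0.0492), which fits the labels. Double replicates 1 and 2 stood apart from the rest, with a median r to other arrays of 0.972 in replicate 1 and 0.987 in replicate 2, where the remaining 10 had 0.995 or more. Double replicate 3, the array used to pick 4 of the genes, was among those 10. The median SD within a genotype was 0.21 in double, 0.07 in acd, 0.10 in p53 and 0.06 in wt. RNA of 3 Y-linked genes was present in 1 of 3 double, 3 of 3 acd, 3 of 3 p53 and 1 of 3 wt samples. Y-linked RNA was thus unevenly spread over the genotypes. The main fit did not adjust for it, and its part in the differences below was not tested. Lists of heart, red blood cell, face, neural and forebrain genes all held genes above the filter, as whole embryos should.

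The vertebrate forebrain is laid out by a graded Wnt signal. Low Wnt activity at the front lets Six3 and Hesx1 specify the rostral forebrain, whereas Wnts from the dorsal midline, Wnt8b among them, mark the medial edge of the future cortex. Emx1, Emx2, Lhx2, Dmrt3 and Fezf2 are active in the progenitors of the dorsal telencephalon, and Otx2 is active across the forebrain and midbrain. The samples were whole embryos, so a value below can also hold RNA made outside the forebrain, and the sources cannot be told apart.

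Promoters of 4 of the genes are printed here from RefSeq (build GRCm38.p6, 250 bases before to 50 after the start of transcription), because their RNAs give the contrast described below. Wnt8b and Fezf2 were the lowest in double replicate 3 relative to wt, Emx2 was low there although it was not picked for it, and Otx2 was level. All 9 genes had an entry, with 13 starts. Capitals mark TAATTA, the core bound by many homeodomain proteins, and TAATCC, the core bound by OTX proteins (GGATTA on the other strand). The Wnt8b promoter lies at chr19:44493222-44493521 on the plus strand, that of Fezf2 at chr14:12345816-12346115 on the minus strand, that of Emx2 at chr19:59458440-59458739 on the plus strand, and the one shown for Otx2, the third of its 4 starts, at chr14:48665060-48665359 on the minus strand.
Wnt8b: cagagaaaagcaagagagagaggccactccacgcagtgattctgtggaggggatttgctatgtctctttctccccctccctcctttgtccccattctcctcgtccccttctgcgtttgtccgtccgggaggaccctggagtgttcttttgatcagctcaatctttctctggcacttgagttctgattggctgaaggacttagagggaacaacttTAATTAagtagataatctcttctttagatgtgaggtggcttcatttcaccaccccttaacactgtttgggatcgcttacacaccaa
Fezf2: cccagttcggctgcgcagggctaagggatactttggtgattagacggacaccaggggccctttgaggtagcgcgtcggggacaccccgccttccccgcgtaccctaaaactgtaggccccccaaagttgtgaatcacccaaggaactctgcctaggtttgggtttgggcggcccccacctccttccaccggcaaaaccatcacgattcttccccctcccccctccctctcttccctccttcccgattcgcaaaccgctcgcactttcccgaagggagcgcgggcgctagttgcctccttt
Emx2: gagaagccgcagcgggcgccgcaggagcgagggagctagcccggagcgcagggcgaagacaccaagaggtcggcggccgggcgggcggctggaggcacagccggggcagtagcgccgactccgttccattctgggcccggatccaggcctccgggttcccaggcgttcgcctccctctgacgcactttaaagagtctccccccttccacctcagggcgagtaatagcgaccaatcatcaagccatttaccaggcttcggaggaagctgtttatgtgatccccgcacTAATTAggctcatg
Otx2: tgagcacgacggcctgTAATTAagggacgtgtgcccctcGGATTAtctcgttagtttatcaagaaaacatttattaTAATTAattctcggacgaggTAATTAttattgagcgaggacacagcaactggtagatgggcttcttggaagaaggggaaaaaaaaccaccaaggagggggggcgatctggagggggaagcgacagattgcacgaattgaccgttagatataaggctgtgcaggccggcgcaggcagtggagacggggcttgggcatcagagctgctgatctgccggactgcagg

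TAATTA was found in 4 of the 13 promoters, which belong to 3 of the 9 genes, against 5.29% of all 32851 promoters in the RefSeq table. TAATCC, searched on both strands, was found in 1 of the 13, against 7.06% of all. CTTTGAT, the core bound by the TCF and LEF factors that act at the end of the Wnt pathway, was also searched on both strands, with ATCAAAG as its reverse complement. It was in 0 of the 13, against 3.73% of all. The 4 Otx2 starts include overlapping windows, so the 13 promoters are not independent. The Wnt8b and Emx2 windows each hold 1 TAATTA, and the Fezf2 window holds none of the 3 motifs. The Otx2 window shown, start 3, holds 3 TAATTA and 1 TAATCC, the most of the 4 Otx2 starts. Otx2 start 1 holds 1 TAATTA, and Otx2 starts 2 and 4 hold none of the 3 motifs. The motif count of Otx2 thus depends on the start shown, so no contrast with the other genes is read from it. A match describes letters in a window and says nothing about binding.

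Wnt8b, the Wnt of the dorsomedial telencephalon, read 7.51, 7.40 and 5.69 in double, 7.31, 7.27 and 7.20 in acd, 7.15, 7.30 and 7.17 in p53, and 6.93, 7.02 and 7.26 in wt. The double samples held both extremes: replicates 1 and 2 were the highest of the 12 arrays and replicate 3 the lowest. Replicate 3 stood at -1.24 relative to the lowest other array and at 38.5% of the wt mean. A lower level in bulk RNA can mean fewer cells of a type or less RNA per cell, and these cannot be told apart here. A second Wnt8b probe set was also lowest in double replicate 3, at 5.32, against 5.58 to 6.15 in the other 11 arrays. The last of its probe sets lay between 4.25 and 4.71 in all arrays and was not lowest there.

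Fezf2, a zinc finger repressor of the forebrain that later specifies corticospinal neurons, read 6.54, 6.47 and 5.07 in double, 6.29, 6.37 and 6.18 in acd, 6.33, 6.63 and 6.36 in p53, and 6.17, 6.23 and 6.32 in wt. Again replicate 3 alone was low, at -1.11 relative to the lowest other array. Its value was below the median of all probe sets on that array (5.36), where background can compress a difference.

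Dmrt3, a DM-domain factor of dorsal telencephalic progenitors, read 6.24, 6.44 and 5.37 in double, 6.49, 6.26 and 6.38 in acd, 6.22, 6.33 and 6.40 in p53, and 6.20, 6.47 and 6.33 in wt. Outside double replicate 3 its values lay between 6.20 and 6.49, and that array was at -0.83 relative to the lowest of them. The other 3 Dmrt3 probe sets were low in every array, at 4.40 or less, and 2 of them were also lowest in double replicate 3.

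Six3, a homeodomain factor that represses Wnt genes in the rostral forebrain and the eye field, read 6.46, 7.05 and 6.08 in double, 6.85, 6.82 and 6.76 in acd, 6.80, 7.02 and 6.89 in p53, and 6.78, 6.69 and 6.73 in wt. It was the mildest of the 4 picked genes, at -0.39 relative to the lowest other array, and that next-lowest array was double replicate 1. The other 2 Six3 probe sets were at 5.07 or less throughout and were not lowest in double replicate 3.

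The remaining 5 genes were not picked by that array. Emx2, the homeodomain factor needed for the hippocampus and the medial cortex, read 7.73, 8.28 and 7.12 in double, 7.90, 7.79 and 7.58 in acd, 7.71, 7.86 and 7.85 in p53, and 7.93, 7.90 and 7.90 in wt. Lhx2, the LIM-homeodomain factor that gives the cortex its identity and is needed for the eye, read 8.73, 9.26 and 8.13 in double, 9.09, 9.04 and 8.60 in acd, between 8.98 and 9.03 in the 3 p53 samples, and 9.08, 8.98 and 8.99 in wt. In both genes double replicate 2 was the highest array and double replicate 3 the lowest, so the double samples overlapped every other genotype. Double replicate 3 was at 57.8% of the wt mean for Emx2 and at 54.0% for Lhx2. Emx1, the homeodomain factor of the dorsal telencephalon, read 7.03, 6.89 and 6.39 in double, and between 6.67 and 6.82 in the 9 other samples. Here double replicates 1 and 2 were both above all other arrays, unlike in Emx2 and Lhx2, where replicate 1 was below every wt value, and replicate 3 was at 79.8% of the wt mean.

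Otx2 and Hesx1 did not share it. Otx2, the homeodomain factor of forebrain and midbrain, read 8.64, 8.85 and 8.75 in double, 8.72, 8.73 and 8.81 in acd, 8.83, 8.60 and 8.70 in p53, and 8.69, 8.82 and 8.65 in wt. All 12 values lay within 0.24, and double replicate 3 was 0.02 above the wt mean. Hesx1, a homeodomain repressor of the rostral forebrain and then of Rathke's pouch, the origin of the anterior pituitary, read 5.96, 5.84 and 5.84 in double, 6.07, 6.91 and 6.41 in acd, 5.79, 6.37 and 6.22 in p53, and 6.25, 6.01 and 6.68 in wt. It was low in all 3 double samples rather than in 1, below every acd and every wt value, while p53 replicate 1 was lower still.

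**Figure D1:**
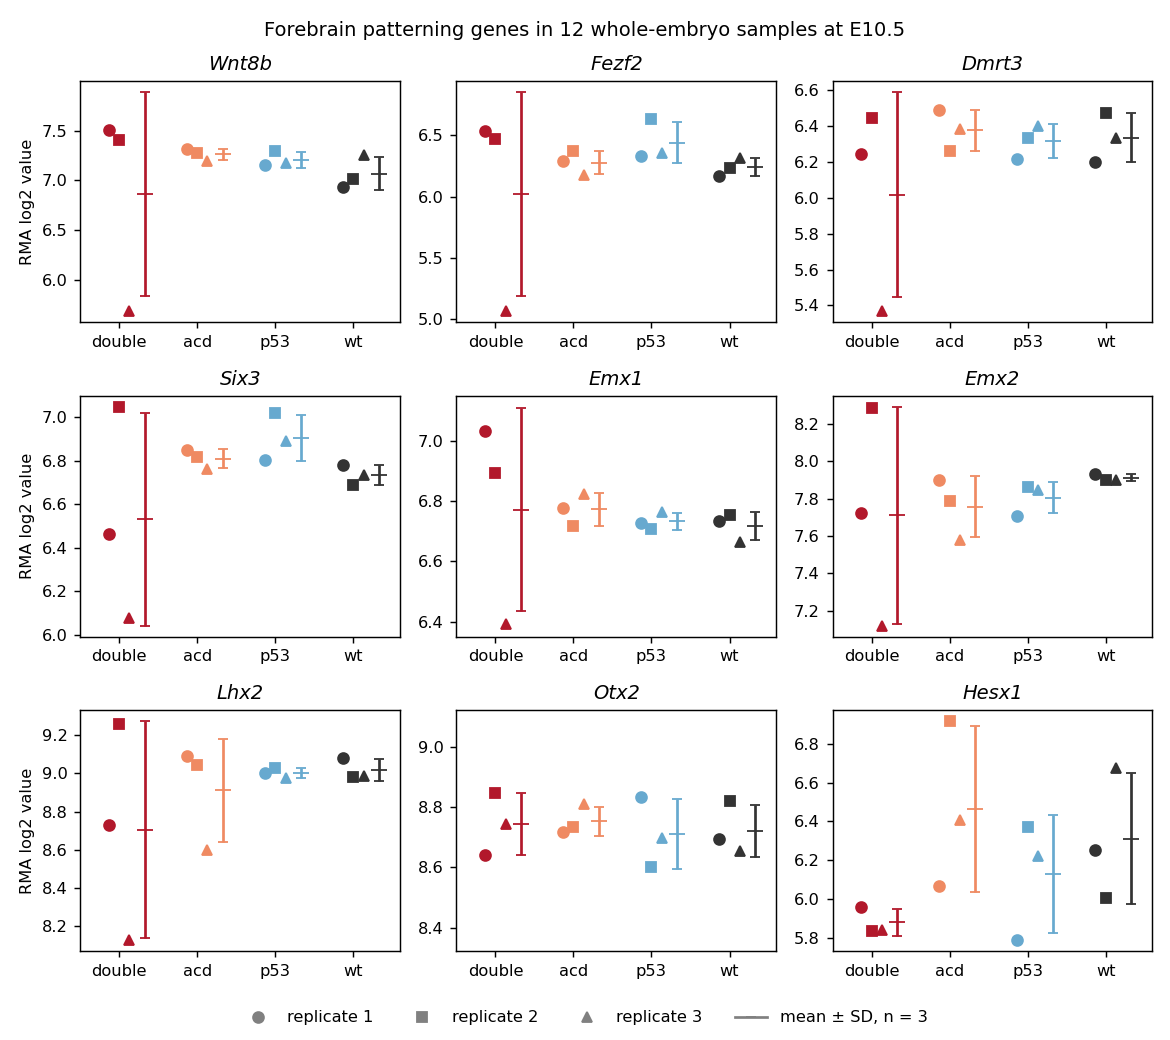
RMA log2 values (vertical axes, a separate range for each gene) of the 9 genes in double, acd, p53 and wt samples, with a symbol for each replicate and bars for mean ± SD of 3 samples. Double replicate 3 is the lowest of the 12 arrays for Wnt8b, Fezf2, Dmrt3, Six3, Emx1, Emx2 and Lhx2, the Otx2 values lie within 0.24, and Hesx1 is low in all 3 double samples.

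Double replicate 3 was the lowest of the 12 arrays for 7 of the 9 genes, for 8.62% of all genes tested. Of the 5 genes not picked for it, 3 were lowest there. It lay more than 0.5 below the lowest other array for 3 of the 9, Wnt8b, Fezf2 and Dmrt3, and for 0.17% of all genes (23). Nothing is read from these counts for the 4 picked genes, whose choice fixed them. The other 3 that were lowest there, Emx2, Lhx2 and Emx1, stayed within 0.5 of the next array. The median difference of double replicate 3 from the wt mean was -1.07 over the 4 picked genes and -0.47 over the other 5, against -0.02 over all genes.

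**Figure D2:**
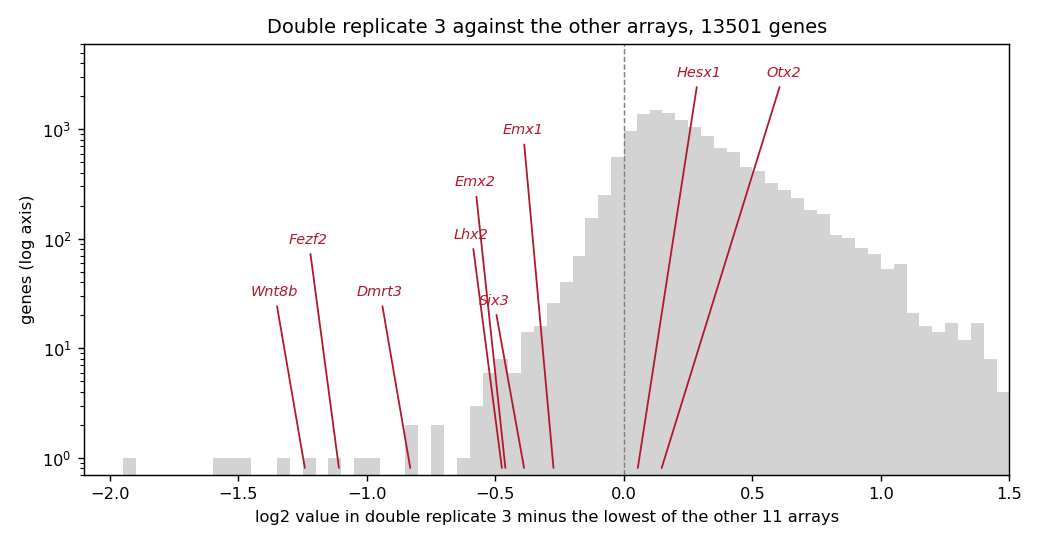
Histogram of all genes tested (vertical axis, number of genes on a log axis) by the log2 value in double replicate 3 minus the lowest of the other 11 arrays (horizontal axis), with lines to the 9 genes; 29 genes beyond 1.5 are not drawn. Left of 0 that array is the lowest of the 12, and Wnt8b, Fezf2 and Dmrt3 lie in the thin left tail while Hesx1 and Otx2 lie right of 0.

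The single mutants were read against wt first. In acd against wt the 9 differences ran from -0.16 to 0.19 with a median of 0.04, against a median of -0.0063 over all genes. None of the 9 passed limma (lowest adjusted p = 1), where 0.0148% of genes did, namely Acd and Elmo3. In p53 against wt they ran from -0.18 to 0.20 with a median of -0.011, against -0.0036 over all genes, and 0 of 9 and 0% of genes passed (limma, lowest adjusted p = 1 among the 9; 98 of all genes had an unadjusted p under 0.05). The spread of double replicate 3 enters these fits, because all 12 arrays share 1 estimate of it. The 4 picked genes were chosen for low values there, which widens their intervals, so nothing is read from their lack of calls. Without that array none of the 9 was called in either comparison. The 95% interval for Wnt8b in acd against wt was -0.59 to 0.97 with that array in the fit, and -0.01 to 0.39 without it.

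Small separations without overlap were present between these genotypes. Emx2 was lower in all 3 acd than in all 3 wt samples, as were 9.86% of all genes. It was also lower in all 3 p53 than in all 3 wt samples, as were 3.36% of genes. Fezf2 and Six3 were higher in all 3 p53 than in all 3 wt samples, as were 3.42% of genes. The differences of means behind these were -0.16 and -0.11 for Emx2, 0.20 for Fezf2 and 0.17 for Six3, and none passed limma (adjusted p = 1).

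Double and p53 samples share p53-/- and differ in the acd allele. They also differ in Y-linked RNA (1 of 3 double and 3 of 3 p53 samples), so allele and sex cannot be told apart. Here 7 of the 9 genes were lower and 2 higher, with a median difference of -0.30, against -0.0089 over all genes. The choice of 4 of the 9 for low values in double replicate 3 favours this, so nothing is read from the count or the median. Of the 5 genes not picked, Lhx2 differed by -0.30 ± 0.22 (SE; limma, adjusted p = 0.546), Hesx1 by -0.25 ± 0.22 (adjusted p = 0.604), Emx2 by -0.10 ± 0.22 (adjusted p = 0.845), Emx1 by 0.04 ± 0.13 (adjusted p = 0.901) and Otx2 by 0.03 ± 0.09 (adjusted p = 0.866). None passed, where 0.00741% of genes did, which is Elmo3 alone. The interval for Otx2 was -0.15 to 0.22, the tightest of the 9. The 4 picked genes averaged 6.87 ± 1.02 for Wnt8b, 6.02 ± 0.83 for Fezf2, 6.02 ± 0.57 for Dmrt3 and 6.53 ± 0.49 for Six3 in double, against 7.21 ± 0.08, 6.44 ± 0.17, 6.32 ± 0.09 and 6.90 ± 0.11 in p53 (SD, n = 3 each), so their SD in double exceeded the gap between the means.

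Double and acd samples share the acd allele and differ in p53. All 9 differences were below 0, with a median of -0.25, against -0.011 over all genes. The picking favours this in 4 of the 9, so nothing is read from the count or the median. Of the genes not picked, Lhx2 differed by -0.21, Emx2 by -0.05, Otx2 by -0.0081 and Emx1 by -0.0010. Hesx1 gave the largest, -0.58 ± 0.22 (SE, 95% interval -1.06 to -0.10), and was lower in all 3 double than in all 3 acd samples, as were 6.9% of genes. It did not pass (limma, adjusted p = 0.371), and 0% of genes passed (1700 had an unadjusted p under 0.05). Against wt, Hesx1 differed in double by -0.43 ± 0.22 (limma, adjusted p = 0.466) and was lower in all 3 double than in all 3 wt samples, as were 8.24% of genes. None of the 5 genes not picked passed in double against wt, where 0.0148% of genes did, again Acd and Elmo3. The median difference of the 9 there was -0.20, against -0.014 over all genes, and it again holds the 4 picked genes. With the mean of a gene's probe sets in place of the highest, the median of the 9 was -0.15 against p53 and -0.14 against acd. Array weights turned it to 0.010 against p53, 0.071 against acd and 0.088 against wt.

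The interaction subtracts the difference between acd and wt from that between double and p53, and so tests whether the effect of acd depends on p53. It was called for 0 of the 5 genes not picked and for 0% of genes (limma, lowest adjusted p = 0.879 among the 5; 531 of all genes had an unadjusted p under 0.05). With the picked genes included, as a description, the values ran from -0.53 for Wnt8b to 0.06 for Emx2.

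Without double replicate 3 several of these differences changed direction, and the double group then rests on double replicates 1 and 2, the arrays that stand apart. Wnt8b averaged higher in those 2 double samples than in wt by 0.39 ± 0.10 (SE, 95% interval 0.16 to 0.61), the only call among the 9 (limma, adjusted p = 0.033). In that fit 12.2% of all genes passed, and 6.13% passed and were higher. Emx1 was next, at 0.24 ± 0.08 against wt (limma, adjusted p = 0.0593), followed by Fezf2, at 0.26 ± 0.10 (limma, adjusted p = 0.117). In double against p53 none of the 9 passed and 13% of genes did, and 6 of the 9 were then higher (median 0.03). In double against acd none passed and 13.9% of genes did, and 5 were higher (median 0.08). Six3 differed from p53 by -0.15 without that array, against -0.37 with it, and Hesx1 from acd by -0.56, against -0.58 with it (limma without that array, adjusted p = 0.489 for Six3 and 0.153 for Hesx1).

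**Figure D3:**
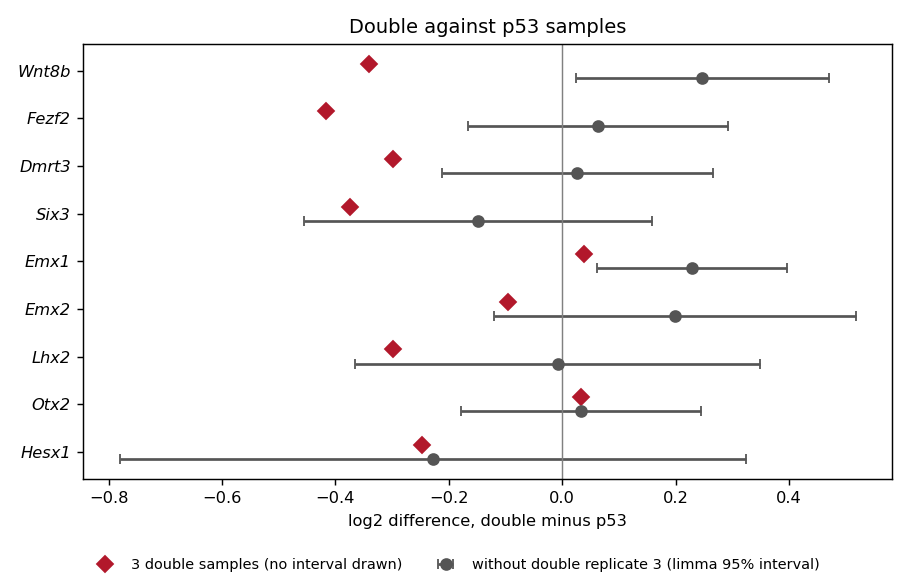
Log2 difference of double minus p53 (horizontal axis) for the 9 genes, with diamonds for 3 double samples and circles for the fit without double replicate 3 with its limma 95% interval. Diamonds lie below 0 for 7 genes, among them the 4 picked for low values in double replicate 3. Without that array 6 of the circles lie above 0, with the intervals of Wnt8b and Emx1 clear of 0 before adjustment.

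Correlations among the 9 genes depended on that array. Over the 36 pairs the median Pearson r was 0.66 over 12 arrays and 0.09 over the other 11, and r exceeded 0.8 for 12 pairs with it and for 1 pair without it. Of the 12 pairs, 11 include a picked gene. Its choice favours a high r with any other gene that is low in double replicate 3, so nothing is read from them. Over the 10 pairs of the 5 genes not picked the median r was 0.08 over 12 arrays and -0.05 over 11, and 1 pair exceeded 0.8 over 12. The points are arrays of a single stage, normalized together, in groups of 3 by genotype. The pair over 0.8 was Emx2 and Lhx2, with r = 0.94 over 12 arrays, 0.83 over 11 and 0.81 over the 9 arrays that are not double. Both were also low in acd replicate 3, at 7.58 and 8.60. Wnt8b and Fezf2 gave 0.97 and, without double replicate 3, 0.73. The mean difference of the 9 genes from wt was -0.02, 0.16 and -0.74 in double, 0.05, 0.09 and -0.04 in acd, -0.05, 0.09 and 0.03 in p53, and -0.03, -0.02 and 0.05 in wt.

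The genes most like this mean over the 12 arrays, of 13492 that are not members, were Dmrta2, Actn2, Alx1, Crym and 3110039M20Rik (r from 0.90 to 0.93). Double replicate 3, at -0.74, dominates the mean, and 4 members were picked for it. The ranking therefore favours genes low in that array, and their low values there are a description. Dmrta2, a DM-domain relative of Dmrt3 in the dorsal telencephalon, read 9.05, 9.18 and 8.19 in double and between 8.74 and 9.28 in the other 9 samples. Alx1, a homeodomain factor of the facial mesenchyme, was 7.48 in double replicate 3 and 7.99 to 8.53 in the other 11 arrays. Actn2, which encodes a Z-disc protein of heart and skeletal muscle, was 6.56 there and 7.20 to 7.43 in the others. Crym, which encodes a thyroid hormone-binding protein, was 8.22 there and 8.96 to 9.62 elsewhere. Without double replicate 3 the r of Dmrta2 with the mean was 0.68, that of Alx1 0.71, that of Crym 0.63, that of Actn2 0.17 and that of 3110039M20Rik 0.16. Over those 11 arrays other genes were most like the mean, namely Golim4, Zbtb5, Dapl1, Itga4 and Abhd2 (r from 0.86 to 0.90). In double replicate 3 these were 0.03 to 0.17 above the wt mean.

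Other forebrain genes show how far the low values reached. Of 24 listed transcription factors and Wnts, 22 had a probe set and 19 passed the filter; 6 of the 19 were lowest in double replicate 3, and 1 lay more than 0.5 below the other arrays. These 6 were Dmrta2 (-0.77 from the wt mean), Fezf1 (-0.72), a relative of Fezf2, Dmrta1 (-0.56), a relative of Dmrt3, Gsx2 (-0.49), a factor of the ventral telencephalon, Wnt7b (-0.46), a Wnt of the cortex, and Lhx5 (-0.39), a LIM-homeodomain factor of the forebrain. Otx1 (-0.07), Nr2f1 (0.06), Sp8 (-0.04), Gli3 (0.06), Neurog2 (0.16) and Wnt3a (0.26), a Wnt of the cortical hem, were near or above wt in that array. The median of the 19 there was -0.07. None of them passed limma in double against p53. The values were -0.54 for Sp8 (adjusted p = 0.463), 0.53 for Lmx1a (adjusted p = 0.467) and 0.37 for Lhx5 (adjusted p = 0.546). Without double replicate 3, Sp8 (-0.78, adjusted p = 0.0189), Lmx1a (0.83, adjusted p = 0.0347), Lhx5 (0.77, adjusted p = 0.0198) and Wnt7b (0.44, adjusted p = 0.0397) passed limma. In that fit 13% of all genes passed, and double was replicates 1 and 2 alone.

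A different set of forebrain genes was low in double replicate 1, as were genes outside the forebrain. There Sp8, a zinc finger factor of the rostral telencephalon, read 7.36, against 8.18 to 8.64 in the other 11 arrays, and Gli3, a transducer of Hedgehog signals needed for the dorsal telencephalon, read 9.25, against 10.12 to 10.57. Dlx2, a factor of the ventral telencephalon, read 6.34 there, against 7.03 to 7.43. The mean difference from wt in that array was -0.47 over midbrain and hindbrain genes, -0.28 over face genes and -0.23 over neural progenitors. It was -0.08 over the other forebrain transcription factors and Wnts, 0.27 over heart muscle and 0.66 over primitive red cells. Of the 9 patterning genes, 6 were below the wt mean in that array, Hesx1 (-0.35), Lhx2 (-0.28), Six3 (-0.27), Emx2 (-0.19), Dmrt3 (-0.09) and Otx2 (-0.08), and 3 were above it, Wnt8b (0.44), Emx1 (0.31) and Fezf2 (0.30).

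**Figure D4:**
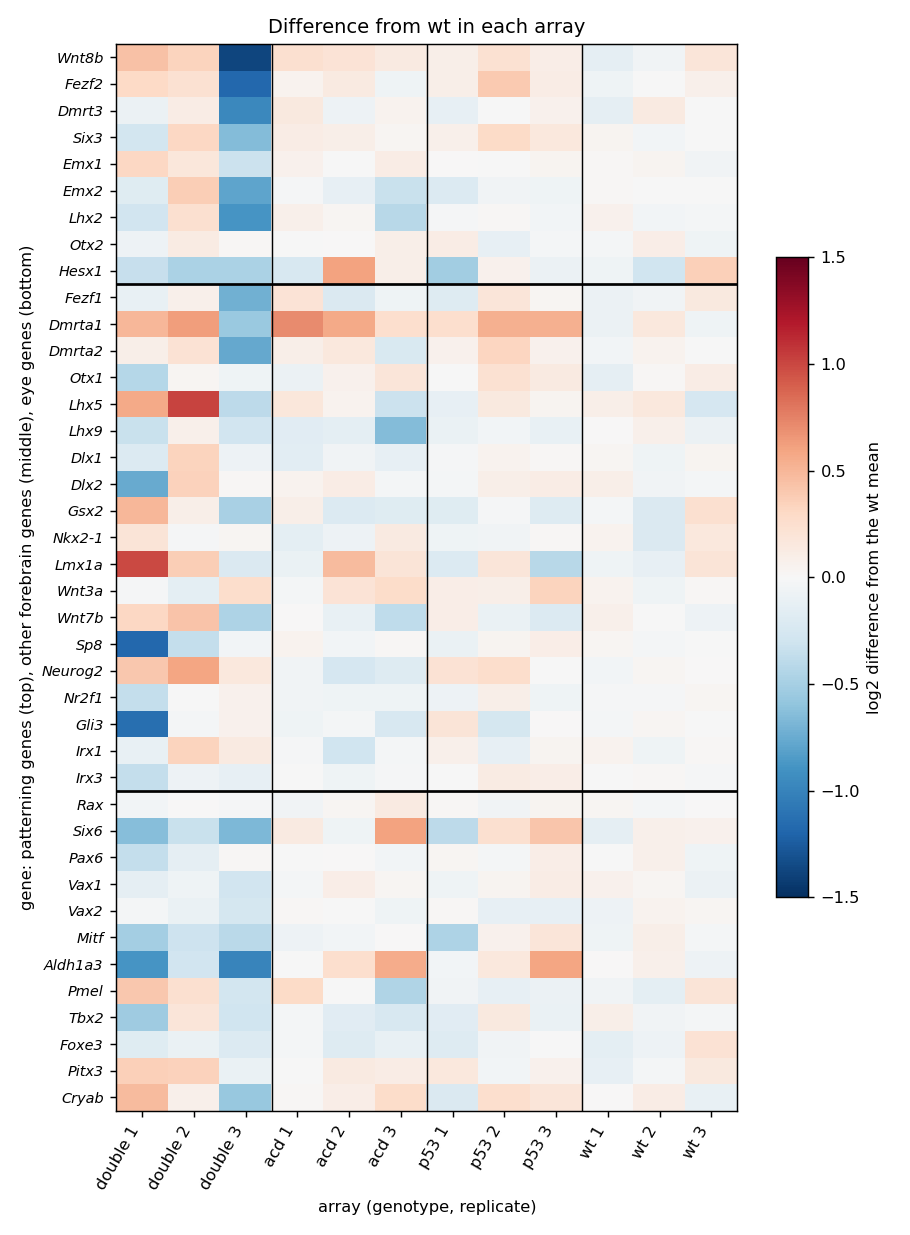
Log2 difference from the wt mean (colour) of the 9 patterning genes, 19 other forebrain genes and 12 eye genes (rows, in blocks from the top) in the 12 arrays (columns, double, acd, p53 and wt). The third column is dark blue for Wnt8b, Fezf2 and Dmrt3 and pale for Otx2, and the first column is blue for Sp8, Gli3 and Dlx2.

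The 12 eye genes included 6 that were lowest in double replicate 3, with a median of -0.28 from wt there. Their largest difference in double against p53 was in Aldh1a3, a retinoic acid-making enzyme of the eye, which read 5.03, 5.63 and 4.93 in double, 5.91, 6.17 and 6.47 in acd, 5.88, 6.08 and 6.51 in p53, and 5.92, 5.99 and 5.84 in wt. All 3 double values were below all 9 others. Of all genes, 5.01% were lower without overlap in double than in p53, 6.9% than in acd and 8.24% than in wt. The share lower than all 9 at once was not computed. The difference from p53 was -0.96 ± 0.20 (SE; limma, adjusted p = 0.463). Six6, a relative of Six3 in the eye and pituitary, differed by -0.64 (adjusted p = 0.463), and Mitf, the factor of the pigmented retina, by -0.34 (adjusted p = 0.463). Among 13 signals and antagonists of the forebrain 2 were lowest in double replicate 3, as were 8.62% of all genes. Fzd5, a Wnt receptor of the eye field, Fgf8, the signal of the rostral midline, and Axin2, a target of Wnt signalling, differed from p53 by -0.37, -0.34 and -0.24 without passing (limma, adjusted p from 0.463 to 0.466). Without double replicate 3, Aldh1a3 (-0.83, limma, adjusted p = 0.032) and Axin2 (-0.38, limma, adjusted p = 0.0393) passed against p53. They were the only calls in either list, where 13% of all genes passed.

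Beyond the forebrain and eye, further lists were read in double replicate 3, which was the lowest array for 8.62% of all genes. Of 12 markers of neural progenitors throughout the nervous system 0 were lowest there, and of 12 markers of differentiating neurons 0 were (median differences from wt -0.01 and -0.06). Of 10 midbrain and hindbrain genes 1 was lowest there, with a median of 0.20, and of 12 genes of the face and branchial arches 2 were, with a median of -0.02. In lists this short such counts are near the share of all genes, so nothing is read from them. Heart muscle, outside the nervous system, was low there as well. Of its genes 7 of 9 were lowest in that array and 4 lay more than 0.5 below the others, with a median of -0.67. Myl2, the light chain of ventricular myosin, read 9.24 in double replicate 3, against 11.16 to 11.96 in the other 11 arrays. Blood cell lists were low to a smaller extent. Of 9 macrophage genes 4 were lowest there, with a median of -0.42, and of 7 genes of primitive red cells 2 were, with a median of -0.51. The mean of the red cell list was -0.42 in that array and -0.46 in p53 replicate 3. Whether the low heart, blood cell and forebrain values of that sample have a common source was not tested.

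**Figure D5:**
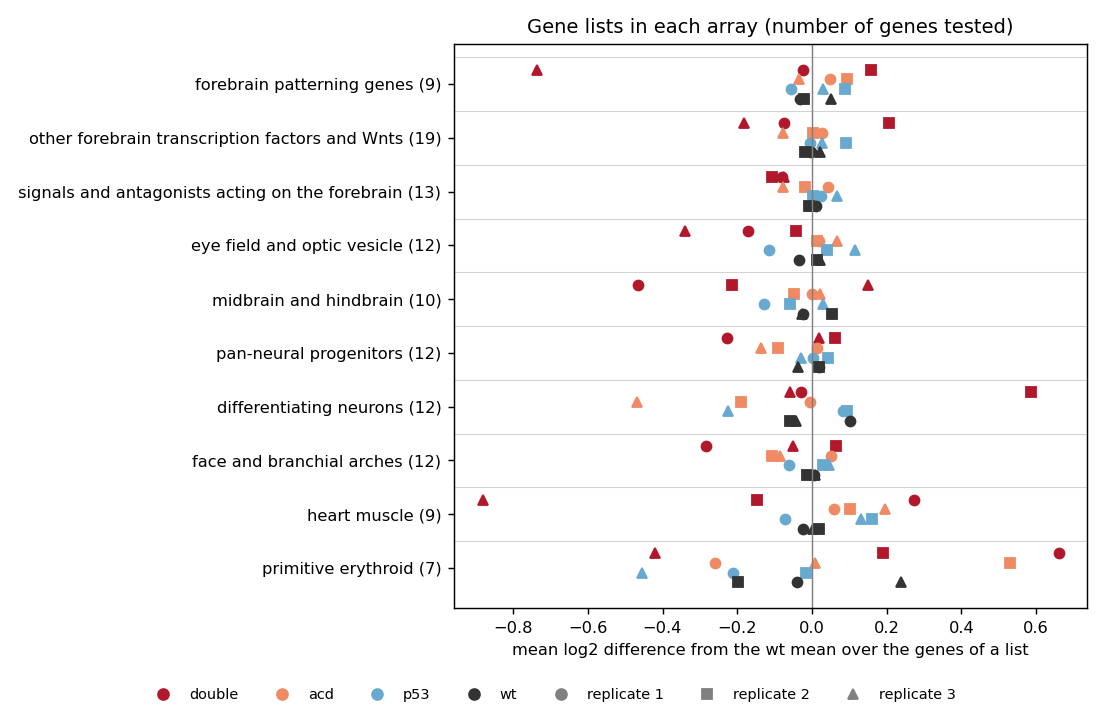
Mean log2 difference from the wt mean (horizontal axis) over the tested genes of 10 lists (rows, number of genes in brackets), with a point for each array, coloured by genotype and shaped by replicate. In double replicate 3 (red triangles) heart muscle averages -0.88, neural progenitors 0.02 and differentiating neurons -0.06. The forebrain patterning genes average -0.74 there, 4 of them picked for low values in that array.

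Other lists set double replicates 1 and 2 apart. Over 6 genes of the interferon response the mean difference from wt was 4.04, 3.63 and 0.27 in double, against -0.04 to 0.39 in the other 9 samples. Over 9 macrophage genes it was 1.60, 1.03 and -0.29 in double, against -0.29 to 0.13 in the others. Double replicate 3, in which 7 of the 9 patterning genes were lowest, lay inside or at the edge of the range of the other genotypes in both lists. Without it, 6 of 6 interferon genes and 8 of 9 macrophage genes were called higher in double than in wt, as were 6.13% of all genes. Fabp7, a marker of radial glia, and Stmn2, a marker of young neurons, differed from p53 by 0.66 and 0.60 (limma, adjusted p = 0.463 for both). Without double replicate 3 they differed by 1.03 (limma, adjusted p = 0.00297) and 0.95 (limma, adjusted p = 0.00776), where 13% of all genes passed. Their highest values were in double replicates 1 and 2. The rise of Wnt8b without double replicate 3 rests on those same arrays, and the part of these lists in it was not tested.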

How the data were processed

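RNA of whole mouse embryos was labelled from 250 ng of total RNA and measured on 12 Affymetrix 3′ expression arrays, per the labels' protocols. The authors deposited 1 log2 value per probe set and array. According to the series' design text they used justRMA for normalization and BRB-ArrayTools 4.4.0 to pick genes, and the submitters' processing notes name RMA too. RMA corrects background, equalises the distributions of the arrays and summarises probes, so a change in total RNA cannot be seen, and signal over background is unknown for single genes. Scanner files and scan dates were not used here. The transcript of p53 was not analysed here. The number of arrays limits the precision.

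Of 45101 probe sets, 34945 had 1 gene symbol in the platform annotation, 932 several and 9211 were not listed. The probe set with the highest mean stood for a gene. Genes above the 40th percentile in 3 or more arrays were tested. Genotype means over all 12 arrays were compared with limma 3.58.1 in R 4.3.3 (lmFit and eBayes, 8 residual degrees of freedom, two-sided), with Benjamini-Hochberg adjustment over 13501 genes at 0.05; the fit was also run without double replicate 3. The test was tested on simulated data with known differences. Deviations from the genotype means had r from -0.23 to 0.39 between same-numbered samples of different genotypes (18 pairs, median 0.04, over 0.1 in 7). The median was 0.0013 between differently numbered ones. The numbers were not taken to pair samples in the main fit, and what same-numbered samples share was not tested.

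The members and lists were chosen with earlier results of these data known. Genes named in the text were all members, Acd, the 5 genes most like the members, and in each other list up to 3 genes with the largest difference in double against p53. The 5 genes most like the members without double replicate 3 were named as well. Further names, such as the forebrain genes lowest in double replicate 3, those low in double replicate 1, and the genes level there, were chosen after their values were seen. Promoters came from RefSeq for GRCm38.p6, a build used for these sequences alone. Alternatives were a replicate block, other filters, normalizations, probe set rules and array weights, only the arrays compared, and leaving out arrays.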

Additional observations from a re-analysis of the deposited data

How the results depend on the processing

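In 246 of 262 repeats of the member counts and medians under other settings, the value kept its direction and side of the threshold or moved by less than the spread between replicates (0.26). The exceptions follow, and the cause was not tested beyond the arrays named. Leaving out each array in turn gave 0 members called in every comparison but double against wt, where the range was 0 to 1 (Wnt8b, without double replicate 3). The median member difference then ran from -0.51 to 0.033 in double against p53, from -0.48 to 0.085 in double against acd, from -0.46 to 0.022 in double against wt and from -0.47 to 0.026 in the interaction, each lowest without double replicate 2 and highest without double replicate 3. It ran from 0.02 to 0.05 in acd against wt and from -0.01 to 0.04 in p53 against wt. The fits that include double replicate 3 hold the 4 genes picked for it. Nothing is read from the sign of their medians, or from a lack of calls among those 4 genes. Array weights, which give less weight to the more variable arrays, moved the median to 0.010 in double against p53, 0.071 in double against acd, 0.088 in double against wt and -0.033 in the interaction. Without double replicates 1 and 2 the double group is replicate 3 alone, assumed to vary like the other groups, and 4 members were called in double against p53, 4 in double against acd, 5 in double against wt and 4 in the interaction, with medians of -0.83, -0.73, -0.79 and -0.77; 0.207%, 0.23%, 0.193% and 0.185% of all genes were called in the same fits, in that order, and that array chose 4 of the members, so nothing is read from this. The mean of a gene's probe sets gave medians of -0.15 in double against p53, -0.14 in double against acd and -0.20 in the interaction, against -0.30, -0.25 and -0.34 with the highest probe set, a move of over 1.5 times though less than the spread between replicates. The likeness of Dmrta2 was 0.93, and 0.68 without double replicate 3.

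With the replicate number as a block, 0 members were called in all 6 comparisons, and the median in double against p53 was -0.30. Those fits hold double replicate 3, so nothing is read from the median or from a lack of calls among the 4 picked genes. The numbers of all genes called depended on the same arrays. They ran from 1 to 3 in acd against wt, 0 to 1 in p53 against wt, 1 to 1756 in double against p53, 0 to 1876 in double against acd, 0 to 1805 in double against wt and 0 to 439 in the interaction. The fit with only the arrays compared was not run for the interaction, which uses all arrays. With 3 samples per genotype and a wide spread in double, the intervals of these genes are wide. Values below the array medians, such as Fezf2 in double replicate 3, may understate a difference.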

Other observations

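The genes with the largest shortfall in double replicate 3, chosen after their values were seen, were partly forebrain genes. Among the 23 genes more than 0.5 below the lowest other array, many encode proteins of heart muscle. Myl2, with a gap of -1.92, was the furthest below, followed by Pln, the regulator of the calcium pump (-1.57), and the natriuretic peptides Nppa (-1.52) and Nppb (-1.46). Myl3, a myosin light chain (-1.04), Smpx (-0.99), Hspb7 (-0.71), Tnni3 (-0.59) and Tnnc1, cardiac troponin C (-0.50), were among them too. No test of the list was made, since it was picked from these values.

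Id4, Nr2e1 and Cntnap2 were also among the 23 genes and were picked from them after their values were seen. Of 12 listed markers of neural progenitors 0 were lowest in that array, where 8.62% of all genes were, so no contrast is read from this. Id4, an inhibitor of basic helix-loop-helix factors in neural progenitors, read 11.15, 10.99 and 9.84 in double. Nr2e1, a nuclear receptor of forebrain stem cells, read 5.57, 5.95 and 4.48 in double. Cntnap2, a neuronal adhesion protein, lay 0.60 under the lowest other array.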
